A study of Homo sapiens with 4 samples.

Results

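CCR4-NOT subunits (CNOT1, CNOT3, CNOT6), the TNRC6 proteins (TNRC6A, TNRC6B, TNRC6C), the Argonautes AGO1 and AGO2 and the AU-rich element binders ZFP36L1 and ZFP36L2 carry out regulated mRNA decay, and the N6-methyladenosine (m6A) peaks of these 10 genes are described here. The genes were chosen by symbol, after the Ensembl gene ID of each peak had been matched to a symbol. Of the 10 genes, 8 had a peak, and they held 21 of the 20261 peaks and 8 of the 10140 gene IDs in the list.

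The m6A-seq data come from poly(A) RNA of MDA-MB-231, a human cell line established from triple negative breast cancer. The RNA was fragmented and immunoprecipitated (IP) with an anti-m6A antibody, and peaks are places with more reads in the IP than in the input RNA. There were 2 input and 2 IP libraries, all from cells labelled shNS with no further treatment named, although the treatment field of both IP libraries reads IP-YTHDC1. The deposited list combined all 4 libraries, with 1 score per peak, read here as a p-value of IP against input (smaller is stronger). It could also be an FDR, and the header does not say. The depth behind a peak is unknown and no spread between replicates can be given, so the values below are descriptions without a test.

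CCR4-NOT is the main deadenylase of the cytoplasm, and shortening of the poly(A) tail by it usually precedes decapping and decay of an mRNA. It has little sequence preference of its own and is brought to mRNAs by adaptors. Argonaute proteins loaded with a microRNA bind TNRC6 (GW182) proteins, which in turn bind CCR4-NOT, and ZFP36 family zinc finger proteins bind AU-rich elements in 3′UTRs and recruit the same complex. The m6A reader YTHDF2 also recruits CCR4-NOT, through CNOT1, which places this complex downstream of m6A. Whether their own transcripts carry m6A peaks is the question addressed here.

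Over the whole list, genes of the plus strand had fewer and weaker peaks than those of the minus strand. Each gene was therefore set only beside protein-coding genes of its own strand. The mean number of peaks was 1.66 ± 1.06 over 2870 listed genes of the plus strand and 2.33 ± 1.64 over 5306 of the minus strand (± SD). For the strongest score of a gene the medians were 1e-06 (plus) and 7.9e-32 (minus). CNOT3, CNOT6, AGO1 and the TNRC6 genes are on the plus strand, and CNOT1, AGO2, ZFP36L1 and ZFP36L2 on the minus strand.

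All 4 minus-strand genes and 4 of the 6 plus-strand genes had a peak. Among RefSeq protein-coding genes whose strand was known from the promoter table, 55.6% of 7758 on the minus strand and 29.3% of 8085 on the plus strand had one. That table has no entry for CNOT1, AGO2 or ZFP36L2, which took their strand from the peak list. Each of the 8 genes had 2 or more peaks, as did 39.9% (plus) and 63.1% (minus) of the protein-coding genes listed. A peak that scored at or below the median of the list, 5.2e-08, was present in 2 of the 4 plus-strand genes with a peak (41.5% of listed genes of that strand) and in 3 of the 4 minus-strand genes (77.9%). The last shares are close to those of the strands as a whole. No test was made on any of these counts, since the genes were chosen with results of this list known.

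**Figure D1:**
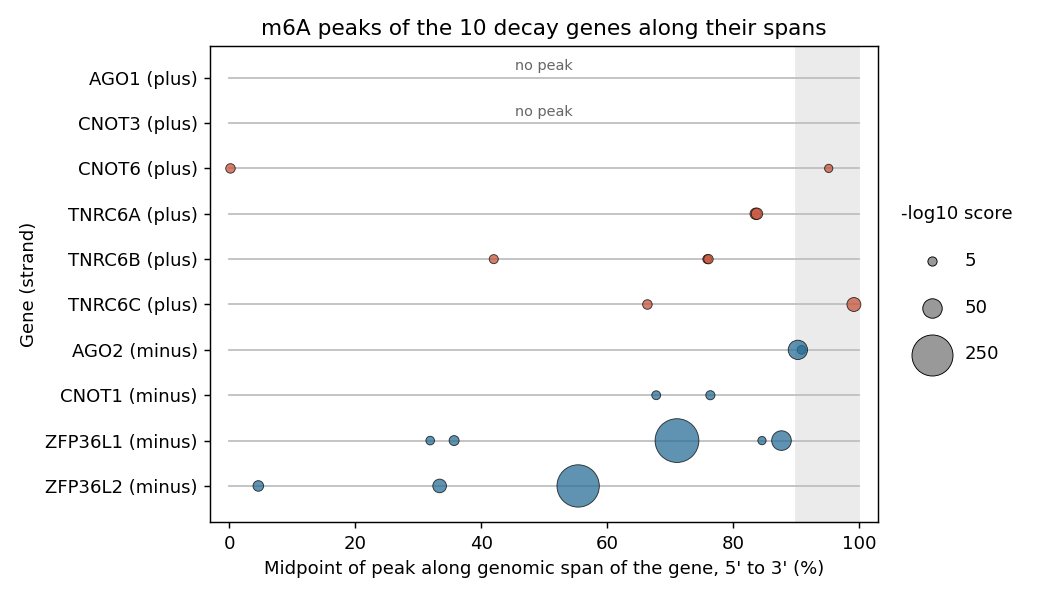
Midpoint of each of the 21 peaks along the genomic span of its gene, in percent from the 5′ to the 3′ end, 1 line per gene with its strand. Circle area grows with the −log10 score, and the shaded band is the final 10% of the span. The largest circles are those of ZFP36L1 and ZFP36L2, and 4 peaks lie in the shaded band.

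The strongest peaks belonged to the AU-rich element binders. ZFP36L1 (chromosome 14, RefSeq span 68787655 to 68796243, minus strand, ENSG00000185650.10) had 5 peaks with 1834 spliced bases. Its strongest score was 1e-286, and 8.42% of listed minus-strand genes had a score as strong. As many peaks as in ZFP36L1 were listed for 8.33% of these genes.

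The main ZFP36L1 peak, 68789250 to 68791029, held 1290 spliced bases in blocks of 1243 and 47 bases separated by 490 bases. It was as long as or longer than all but the longest 1.96% of minus-strand peaks. The next, 68788590 to 68788830, lay 935 bases before the 3′ end of the span and had a score of 6.3e-52. Between these 2 peaks was a weak peak of 61 bases at 68788950 to 68789010 (score 0.0032). Another 2 peaks of 121 bases each lay nearer the 5′ end, at 68793117 to 68793237 (4.7e-08) and 68793447 to 68793567 (0.00038). Scores thus differed greatly along the span of 1 gene, from a −log10 score of 2.49 to 286. The gap between the strong group and the group nearer the 5′ end was 2087 bases.

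ZFP36L2 (chromosome 2, 43222402 to 43226606, minus strand, ENSG00000152518.8), the paralogue of ZFP36L1, had 3 peaks with 1522 bases. A strongest score as low as its 1e-267 was reached by 9.03% of minus-strand genes. This peak, 43223772 to 43224784, was 1013 bases long in 1 block, a length reached by 4.23% of minus-strand peaks. A second peak of 299 bases, 43225052 to 43225350, had a score of 2.5e-21. The last, 43226308 to 43226517, was 210 bases long (4.6e-10) and began 89 bases from the 5′ end of the span. All 3 ZFP36L2 peaks scored at or below the list median, against 3 of 5 in ZFP36L1.

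Both genes are short and their peaks covered much of them. Peaks took up 36.2% of the 4205 bases of ZFP36L2, a share reached by 2.51% of minus-strand genes, and 21.4% of the 8589 bases of ZFP36L1, reached by 5.79%. The span includes introns, so that long genes have low shares. In both paralogues 1 long peak dominated. Its midpoint lay at 71.1% of the span in ZFP36L1 and at 55.4% in ZFP36L2, and its 3′ border lay 1595 and 1370 bases before the 3′ end. The remaining gene of this family, ZFP36 (tristetraprolin), is on the plus strand and had 2 peaks with 300 bases and a strongest score of 5.5e-06. Of plus-strand genes, 56.4% had a score as strong.

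**Figure D2:**
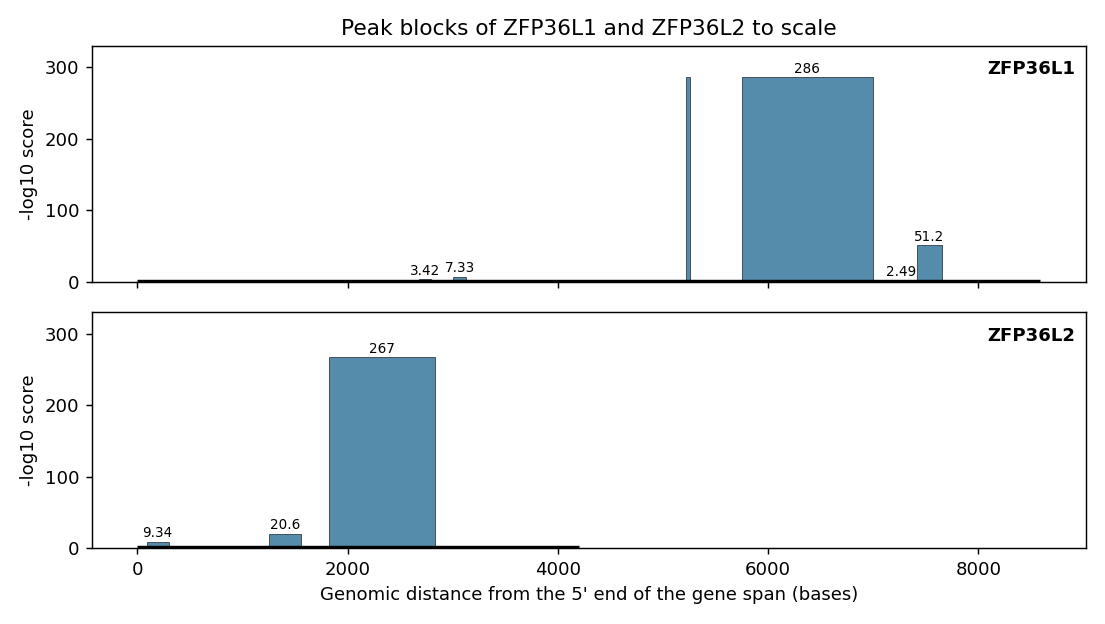
Peak blocks of ZFP36L1 and ZFP36L2 drawn to scale against genomic distance from the 5′ end of the gene span in bases, with bar height showing the −log10 score of the peak and the black line the span. The main peaks reach 286 and 267, and every other peak is at or under 51.2.

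AGO2, the Argonaute with slicer activity, had the smallest score among the microRNA effector genes, though it lies on the strand where scores are smaller throughout. The gene (chromosome 8, 140520156 to 140642313, minus strand, ENSG00000123908.12) had 2 peaks. The stronger, 140531689 to 140532431, held 464 and 16 bases in blocks 263 bases apart and had a score of 6.3e-50. The other, 140531239 to 140531299, was 61 bases long with a score of 0.00014. Both lay in the final 10% of the span, 11533 and 11083 bases before its 3′ end, and 389 bases separated them. Among minus-strand genes 40.6% had a score as strong, so AGO2 stood near the middle of its strand.

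No peak was listed for AGO1, and no peak of any other gene lay in its span (chromosome 1, 35869761 to 35930532, plus strand). AGO3 and AGO4, also on the plus strand, had none either. AGO2 was thus the single Argonaute gene with a peak and the single one on the minus strand, so gene and strand cannot be told apart here. A gene without a peak can be unmethylated, weakly expressed or below detection, and the list gives no expression values.

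The 3 TNRC6 genes, which link Argonautes to the deadenylases, all had peaks. TNRC6A (chromosome 16, 24610205 to 24826218, plus strand, ENSG00000090905.19) had 2 peaks of similar strength, 24790590 to 24790980 with 391 bases (2e-12) and 24791039 to 24791279 with 241 bases (6.3e-13). They were 58 bases apart and together spanned 690 bases. Their midpoints lay at 83.6% and 83.8% of the span, 34939 bases or more before its 3′ end. Of plus-strand genes, 26.6% had a score as strong and 13.8% had as many bases in peaks.

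TNRC6B (chromosome 22, 40044834 to 40335808, plus strand, ENSG00000100354.21) had 3 peaks with 723 bases, a number of peaks reached by 15.7% of plus-strand genes. None of them scored at or below the list median. The first, 40156133 to 40178055, joined blocks of 50 and 131 bases across 21742 bases (2.8e-05). The second, 40265538 to 40265868, was 331 bases long (0.00014), and the last, 40266108 to 40266318, was 211 bases long (1.9e-06). The last 2 peaks were 239 bases apart, and at this place RefSeq has a lncRNA, LOC124905121, on the opposite strand, for which no overlapping peak was listed. TNRC6B therefore had more peaks but weaker ones than TNRC6A, and 52.5% of plus-strand genes had a score as strong as its smallest.

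TNRC6C (chromosome 17, 77957557 to 78108835, plus strand, ENSG00000078687.17) had the smallest score of the 3 genes, 1.6e-22, in a peak of 331 bases at 78107517 to 78107847. That peak cannot be given to TNRC6C with certainty. A peak of ENSG00000204282 on the minus strand, 78107518 to 78107847, had the same score and 330 bases in common with it, and it also lay in the RefSeq span of the minus-strand gene TMC6. It ended 988 bases before the 3′ end of TNRC6C. With it, 16.6% of plus-strand genes were as strong as TNRC6C. Without peaks that overlap one on the opposite strand, the gene kept 1 peak with a score of 9.5e-07, and 45.8% of plus-strand genes were as strong. This remaining peak, 78051169 to 78064732, held blocks of 289 and 11 bases across 13264 bases. Without the shared peak TNRC6A, not TNRC6C, had the smallest score of the TNRC6 genes. The TNRC6C peak was the only one of the 21 with such an overlap, which was found for 12.0% (plus) and 5.83% (minus) of the peaks of protein-coding genes.

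**Figure D3:**
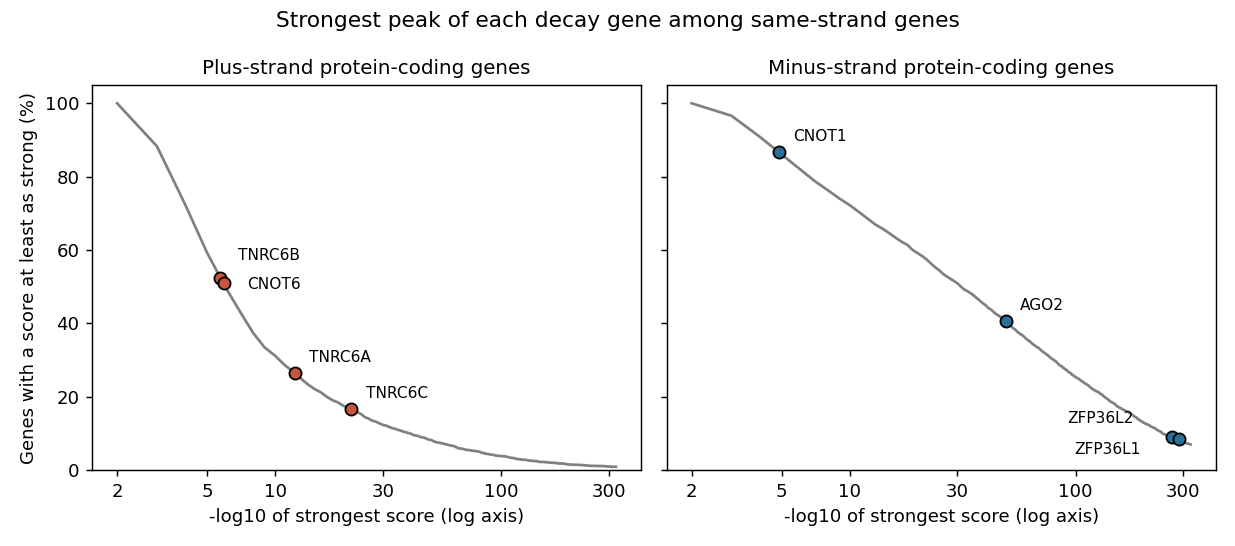
Strongest score of each of the 8 genes with a peak (points) on the curve of all protein-coding genes of the same strand in the list. The horizontal axis is the −log10 score on a log axis and the vertical axis the percent of genes at least as strong, from 8.42% for ZFP36L1 to 86.7% for CNOT1. The TNRC6C point is the score of its peak shared with the opposite strand.

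The 3 CCR4-NOT subunits differed in their place within their strands. CNOT1 was weak for the minus strand, CNOT6 was near the middle of the plus strand and CNOT3 had no peak. CNOT1, the scaffold of the complex (chromosome 16, 58519951 to 58629826, minus strand, ENSG00000125107.18), had 2 peaks of 91 bases each. One, 58545406 to 58546325, held blocks of 86 and 5 bases (1.4e-05), and the other lay at 58555338 to 58555428 (9.1e-05). On this strand, where scores are mostly much smaller, 86.7% of genes were as strong as CNOT1, and 84.5% had as many bases in peaks. CNOT1 was the weakest of the 4 minus-strand genes, with 0.166% of its span in peaks.

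CNOT6, a catalytic deadenylase subunit (chromosome 5, 180494379 to 180578358, plus strand, ENSG00000113300.13), had a peak near each end of its span. The first, 180494409 to 180494648, was 240 bases long (1.2e-06) and began 30 bases after the start of the span. The second, 180574296 to 180574386, was 91 bases long and had the largest score of all 21 peaks (0.004). Of plus-strand genes, 50.9% had a score as strong as that of CNOT6. CNOT3, a structural subunit that binds the core of the complex (chromosome 19, 54137762 to 54155681, plus strand), had no peak, and no peak of another gene lay in its span.

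CNOT6 was the only one of the 7 genes in the RefSeq promoter table, which runs from 250 bases before to 50 bases after the start, with a peak in that window. CNOT1, AGO2 and ZFP36L2 were not among the 7. The end of the window is shown because it holds the start of the CNOT6 peak, at chr5:180494399-180494428 on the plus strand (RefSeq, GRCh38.p14), with the 20 bases inside the peak in capitals.

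CNOT6: atgatgcttgTTTGCTTTCAATGAAAACGA

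m6A is set on an A that is followed by C and usually preceded by A or G. Searched on the transcript strand alone, the 20 bases hold AAC and not GAC. The paper places m6A within RRACH, where R is A or G and H is any base but G. The AAC here is followed by G, so it is not an RRACH site. In the same 20 bases of all 34961 promoter windows on the autosomes and the X chromosome, AAC was found in 14.8% and GAC in 20.1%. The rest of this peak and the sequences of the other peaks were not used here.

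Most peaks of these genes, 15 of 21, lay between the first and the final 10% of the span. In the final 10% of the span lay 4 of the 21 peaks (19.0%, 95% Wilson interval 7.67 to 40.0%, which covers counting error only). These 4 were 2 of 9 plus-strand and 2 of 12 minus-strand peaks, the latter being the AGO2 pair. The interval pools the strands and treats peaks as independent. Since 13 of the 21 had another peak of the gene within 500 bases, it may be too narrow. Over all protein-coding peaks inside their span the shares were 36.4% (plus) and 37.8% (minus), both inside that interval, and the difference was not tested. The first 10% held 1 peak on each strand, those of CNOT6 and ZFP36L2, against 13.2% (plus) and 12.1% (minus) overall. Measured in bases, 2 of 9 peaks (plus) and 6 of 12 (minus) were within 5000 bases of the 3′ end. Of the latter, 3 were in ZFP36L2, whose whole span is shorter than that, and the rest in ZFP36L1, with 8589 bases. No AGO2 or CNOT1 peak was that near. Over all peaks the shares within 5000 bases were 57.0% (plus) and 53.7% (minus). Exons, coding sequence and UTRs were not mapped, so that a peak far from the 3′ end of the span can still lie in the last exon.

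Another peak of the same gene within 500 bases was found for 4 of 9 peaks (plus) and 9 of 12 (minus), 5 of the latter in ZFP36L1. The shares over all protein-coding peaks were 30.1% (plus) and 38.5% (minus), and over the genes with 2 or more peaks, to which all 8 genes belong, 47.1% and 45.8%. The neighbours were the pairs in TNRC6A, TNRC6B and AGO2, all 5 peaks of ZFP36L1 and the 2 main peaks of ZFP36L2. Gaps between these neighbours ran from 58 to 389 bases, and ZFP36L1 held 2 groups, 2087 bases apart. Of the 21 lengths, 19 were multiples of 30 bases with at most 1 base added, so borders are placed in steps and gaps are known only to about that step.

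Genes with the same number of peaks on the same strand and the nearest strongest score were as follows. Ties were ordered by the smallest difference in bases in peaks from the gene being matched. For ZFP36L1 they were CHD4, ECE1 and NSD3, within 5.0 on the log10 scale, among 192 candidates with 5 peaks. For ZFP36L2, with 837 candidates, they were HJURP, OXLD1 and DDX5, within 2.0. AGO2 had MAP3K9 at the same score, then SMAD2 and ZMYM3. TNRC6B was matched by KMT2E at the same score, then ZBED4 and PCF11, and TNRC6C by COL13A1, HOXD11 and NASP, although the TNRC6C score is that of the shared peak. TNRC6A had the same score as RAB40C, EBP and IST1, CNOT6 the same as NUP50, ARID3A and PWWP3A, and CNOT1 the same as NPIPB11, FOXD4 and GGN.

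To place the 10 genes in their pathway, 57 other genes of mRNA decay were examined in lists of textbook members. Of these, 39 had a peak, 28 had one at or below the list median and 3 were listed at a score of 0, which means too small to be stored. By strand, a peak was listed for 9 of 19 (plus) and 30 of 35 (minus), and the strand of the other 3 was not given in the tables used. Over RefSeq protein-coding genes the shares with a peak were the 29.3% (plus) and 55.6% (minus) given above. A peak at or below the median was found in 2 of the 9 and in 26 of the 30, beside 41.5% and 77.9% of listed genes. As in the list at large, the strand of a gene went with whether and how strongly it was listed.

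Among 9 other genes of CCR4-NOT subunits and associated proteins, 5 had a peak, 2 of 5 (plus) and 3 of 4 (minus). Over RefSeq protein-coding genes the shares were 29.3% and 55.6%. TNKS1BP1, a protein that associates with the complex, had 4 peaks with 3533 bases, the strongest listed at 0. CNOT4, an E3 ubiquitin ligase, had 3 with 1529 bases (1.6e-59). CNOT7, a catalytic subunit of the CAF1 type, had 1 weak peak of 91 bases (0.00041). CNOT6L, the paralogue of CNOT6, had none, and neither had CNOT8, CNOT10 or CNOT11. Of these 9 genes only TNKS1BP1 and CNOT4 had a peak at or below the median. They were 2 of the 3 minus-strand genes with a peak, beside 77.9% of listed genes of that strand. Neither of the 2 plus-strand genes with a peak had one, beside 41.5%. CNOT1, CNOT3 and CNOT6 had no such peak.

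Of 8 other deadenylases and adaptors, 5 had a peak, 1 of 2 (plus) and 4 of 6 (minus). The shares over RefSeq protein-coding genes were 29.3% and 55.6%, as above. The anti-proliferative adaptors, which bind the catalytic subunits of CCR4-NOT, differed among themselves. BTG1 had 3 peaks with the strongest listed at 0, TOB2 had 2 (1e-254) and TOB1 had 2 (1e-253), whereas BTG2, on the plus strand, had 3 weak peaks (2.6e-05, a score that 63.5% of plus-strand genes reached) and BTG3, on the minus strand, had none. For TOB1 and TOB2, 9.52% and 9.42% of minus-strand genes were as strong, close to the 9.03% of ZFP36L2. Among 8 other Argonaute and microRNA processing genes, 6 had a peak, 2 of 4 (plus) and 4 of 4 (minus). They were led by the nuclease DROSHA (3 peaks, 1e-141), the nuclease DICER1 (5 peaks, 2e-67) and its partner TARBP2 (2 peaks, 7.9e-18). The strongest TARBP2 peak overlapped one on the opposite strand.

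Other mRNA-binding regulators of decay had a peak in 9 of 10 cases, 2 of 3 (plus) and 7 of 7 (minus). Peaks are more common on the minus strand (55.6% of RefSeq protein-coding genes, against 29.3% on the plus strand). KHSRP had 5 peaks (1e-259) and HNRNPD had 2 (1e-124). Of 12 decapping and 5′ to 3′ decay genes, 6 had a peak, 0 of 3 (plus) and 6 of 8 (minus), with the strand of 1 not given. The helicase DDX6 was listed at 0, and the decapping factors EDC3 (2e-31) and DCP1A (3.2e-28) were next. The exonuclease XRN1 and the decapping enzyme DCP2 had none. In nonsense-mediated decay 7 of 8 genes had a peak, 2 of 2 (plus) and 5 of 5 (minus), with the strand of 1 not given. They were led by UPF2 (1e-214), UPF3B (1e-174) and SMG6 (1e-125), the last chosen over SMG5 at the same score by bases in peaks. Of the 2 cytoplasmic poly(A) binding protein genes examined, PABPC4 had 1 peak (0.00012) and PABPC1 none.

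Set against its own strand, the median over the 8 genes with a peak was 33.6% of same-strand genes as strong, against 50.1% over all 8176 protein-coding genes in the list. It was 52.3% over the 39 other decay genes with a peak. The 8 genes ranged from 8.42% (ZFP36L1) to 86.7% (CNOT1), both on the minus strand, so on that strand the group held strong and weak genes. On the plus strand they ranged from 16.6% (TNRC6C, with its shared peak) to 52.5% (TNRC6B).

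**Figure D4:**
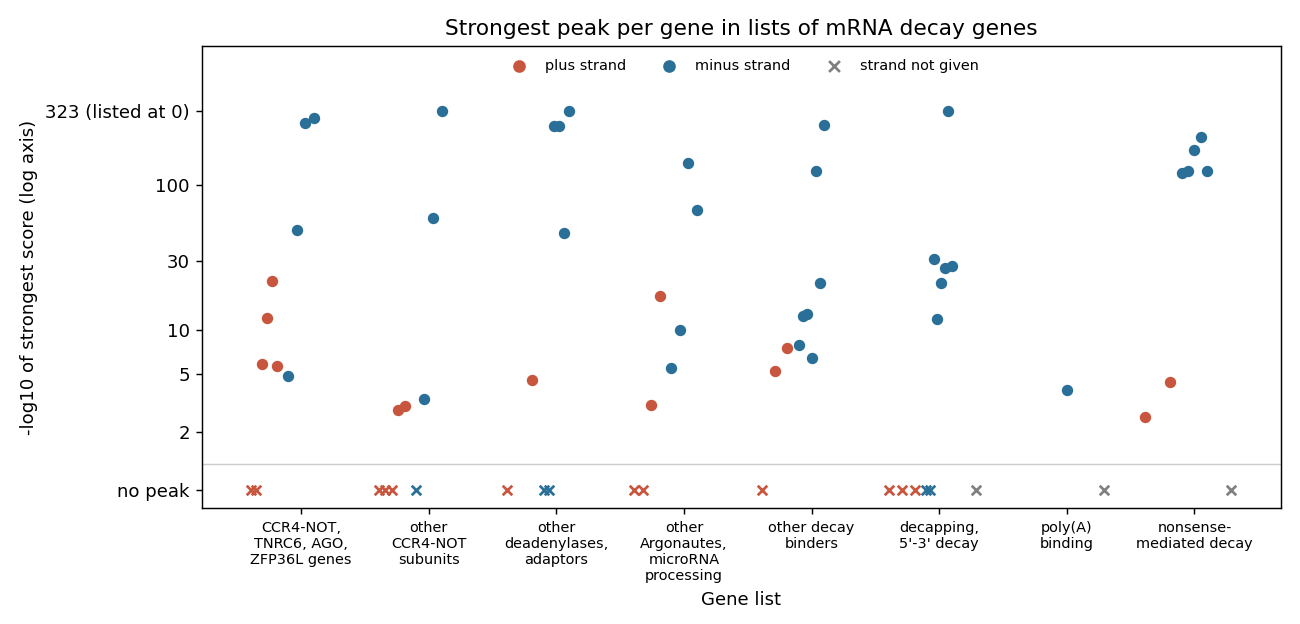
Strongest −log10 score of each gene (log axis) in 8 lists of mRNA decay genes, 1 point per gene, coloured by strand. Crosses below the line are genes without a peak, and 323 is the value given to a score listed at 0. Minus-strand points reach 323 in 3 lists. The highest plus-strand points are TNRC6C at 21.8 and TARBP2 at 17.1, both scores of peaks that overlap one on the opposite strand.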

How the data were processed

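The authors aligned m6A-seq reads with STAR to a transcriptome of GENCODE v33 (hg38 per the labels), called peaks with exomePeak at default settings and kept those past thresholds of FDR and fold enrichment. The deposited score was read as a p-value. The 10 genes and the pathway lists were chosen with earlier results of these data known.

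Ensembl IDs without version were matched to symbols (10103 of 10140) and symbols to RefSeq spans on GRCh38.p14, which was possible for all 10 genes. Coordinates count from 1. Position was the midpoint of a peak along the genomic span, introns included. Scores of 0 were ranked at a −log10 of 323. Peaks on opposite strands overlapped if their blocks shared at least 1 base. The share in the final 10% of the span carries a 95% Wilson interval, which treats peaks as independent. Named pathway genes were the 3 with the smallest score in each list, ties going to more bases in peaks (1 gene is not reported here), and others were named where a gene's lack of a peak or its family bore on the 10 genes. Overlap and merging were tested on simulated peaks. Python 3.11.15, pandas 2.3.3 and scipy 1.17.1 were used. A genome sequence and an exon map were not used here, so motif and UTR positions were not analysed. No file gives counts, so depth is unknown.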

Additional observations from a re-analysis of the deposited data

How the results depend on the processing

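Restricting the list to scores at or below its median left 10 of the 21 peaks and 5 of the 8 genes, with CNOT1, CNOT6 and TNRC6B lost. Merging overlapping peaks left all 21, as did dropping the records at the end of the list, where the chromosome order begins anew, and leaving out peaks that overlap one on the opposite strand left 20 peaks and 8 genes. The share in the final 10% of the span (19.0%) ran from 15.0% to 20.0% under the alternatives that keep this measure, and was 38.1% when counted as peaks within 5000 bases of the 3′ end. The median share of same-strand genes as strong (33.6%) was 30.9% against all gene IDs of the strand, 13.9% by bases in peaks and 42.4% without peaks that overlap one on the opposite strand. The last setting, for this and for the share in the final 10%, was chosen after seeing the data. No paired analysis was possible because all 4 libraries were combined into a single score per peak, and for the same reason no replicate could be left out.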
